A study of Mus musculus with 12 samples.

Results

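The transcripts described here are those of 7 mouse genes of cholesterol synthesis, *Srebf2*, *Hmgcs1*, *Sqle*, *Idi1*, *Fdps*, *Fdft1* and *Lss*, taken by name from a list of the regulator SREBP2 and enzymes it controls. They are 7 of the 54532 genes in the RNA-seq tables of a study that removed an intestinal enhancer of *Ctnnb1*, the gene for β-catenin. Adult mice of a C57BL/6 background gave 12 libraries. Small intestinal crypts came from 3 wild-type and 3 ieCtnnb1KO mice, in which CRISPR/Cas9 had deleted the enhancer from both germline copies. Colon tumors, from mice that were 5 months old, came from 3 APCmin/+ and 3 APCmin/+;ieCtnnb1KO mice. All 6 tumor donors carried the Min nonsense allele of *Apc*, and the tumors were whole tissue with its stroma and immune cells. The deletion was present in every cell of the animal throughout life, and no treatment was given. The comparison asked whether transcripts of the pathway differed between genotypes in normal crypts and in tumors.

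Cells of the intestinal epithelium make cholesterol from acetyl-CoA as well as absorbing it from food and bile. When sterols in the endoplasmic reticulum run low, the escort protein SCAP carries SREBP2 to the Golgi, where proteases release a fragment that enters the nucleus and binds sterol regulatory elements in the promoters of the enzymes. When sterols are plentiful, INSIG proteins hold SCAP back, and transcription of the whole pathway falls together.

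*Ctnnb1*, the gene whose enhancer was deleted, was read first. Its level was 120.6, 134 and 123 FPKM (fragments per kilobase of gene length, scaled between libraries) in the wild-type crypts. In the ieCtnnb1KO crypts it was 102, 104 and 105 FPKM. In tumors it was 299, 363 and 358 FPKM with APCmin/+ alone and 279, 248 and 250.2 FPKM with the deletion. Every knockout library lay below every control library of its tissue. The log2 fold change was -0.28 in crypts and -0.39 in tumors, with limma adjusted p of 0.849 and 0.303.

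Some libraries stood apart before any result was read. The crypt libraries of wild-type replicates 1 and 2 held stomach transcripts: of the 5 listed stomach genes, replicate 1 had none at 0 and replicate 2 had 1 at 0, against 4 at 0 in each of the other 4 libraries. Their summed level was 37.9 and 37.3 FPKM there and 1.74 to 2.24 FPKM elsewhere, and *Pgc*, highest by mean over the 6 libraries, was at 17.5 and 13.8 FPKM in these. Wild-type replicate 1 also had the lowest sum of the 7 villus enterocyte markers (3099 FPKM, against 4633 to 9103 FPKM in the other 5) and the highest sum of the 8 proliferation markers (200.2 FPKM, against 140.3 to 191 FPKM). The labels give no sex. *Xist* was at 114 and 61.4 FPKM in replicate 3 of each tumor genotype and at or below 0.0623 FPKM in the other 10 libraries, so that both tumor groups held the same mix. FPKM were scaled within each tissue's table, and no level is compared between tissues. For each library the ratio of each gene to its geometric mean over the table was taken. The median ratio was 1.007 in every crypt library and 1.005 in every tumor library. The scaling thus made these medians equal and was not by sequencing depth alone.

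**Figure D1:**
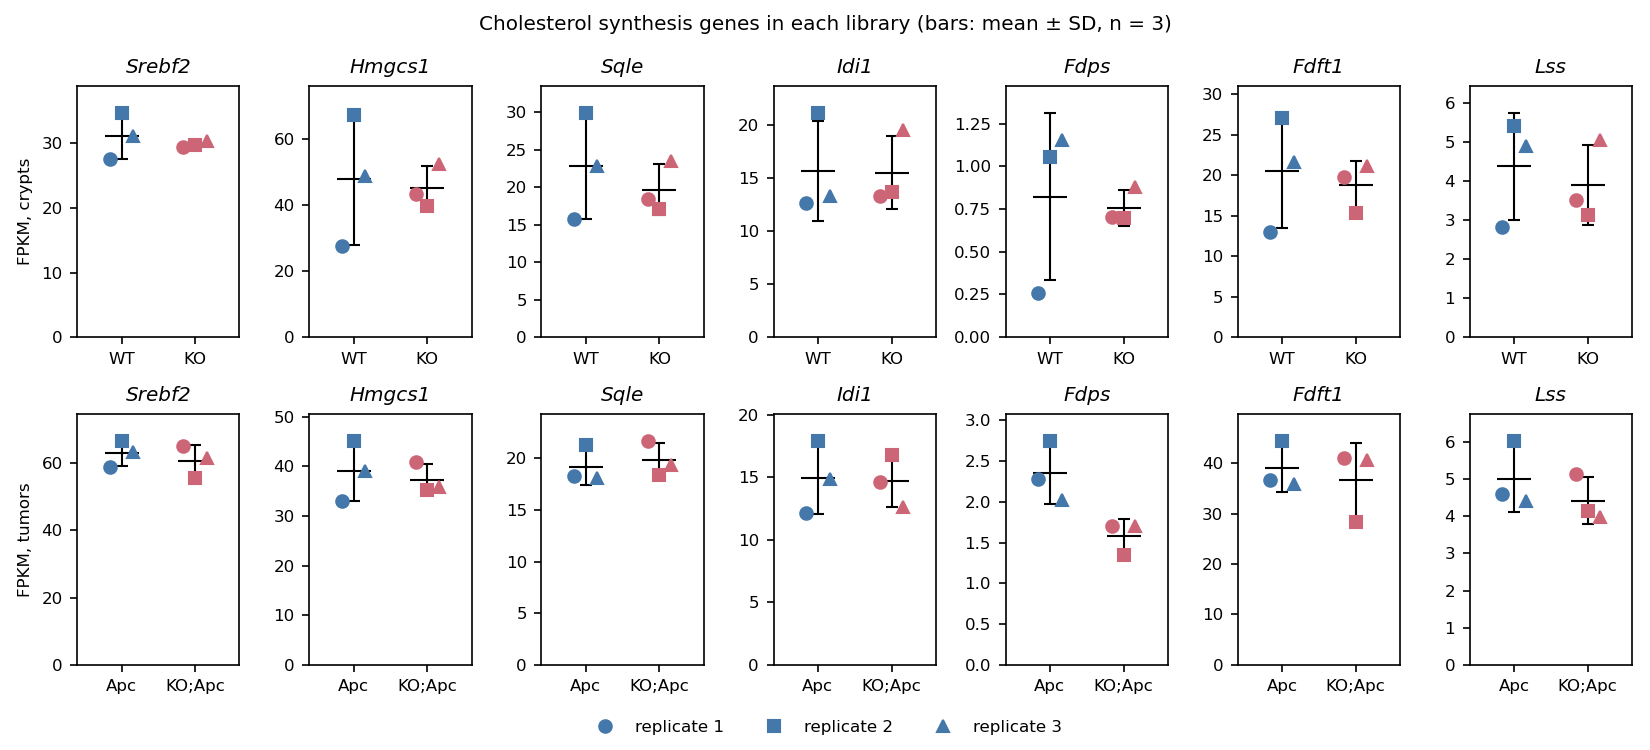
FPKM of the 7 genes in each of the 12 libraries, crypts above and tumors below, with a separate axis from 0 for each gene. Symbols mark the replicate number, blue is control and red carries the enhancer deletion (KO), and black bars are mean ± SD (n = 3). Wild-type crypt replicate 1 (blue circle) is the lowest of its 6 libraries in all 7 panels, and in tumors only the groups of *Fdps* do not overlap.

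*Srebf2* encodes SREBP2, the regulator itself, and lies at chr15:82147181-82205379 on the plus strand (GRCm38). In crypts its level was 27.5, 34.7 and 31.1 FPKM in wild-type replicates 1 to 3 and 29.4, 29.8 and 30.5 FPKM in ieCtnnb1KO replicates 1 to 3. The knockout libraries lay inside the range of the wild-type libraries. In tumors it was 58.8, 66.4 and 63.2 FPKM with APCmin/+ and 64.9, 55.6 and 61.3 FPKM with APCmin/+;ieCtnnb1KO, again with overlapping groups. Its log2 fold change was -0.05 in both tissues, with a 95% interval from -0.34 to 0.24 in crypts and from -0.28 to 0.17 in tumors. It was also the steadiest of the 7 genes in both tissues. Its SD within groups on the log2 scale was 0.118 in crypts, at percentile 14 of all tested genes, and 0.1 in tumors, at percentile 16.1.

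*Hmgcs1* encodes the cytosolic synthase that condenses acetyl-CoA units into HMG-CoA, at the head of the pathway (chr13:119690379-119708260, plus strand). Crypt levels were 27.5, 67.3 and 48.8 FPKM in wild-type mice and 43.4, 39.6 and 52.5 FPKM in ieCtnnb1KO mice. The wild-type libraries alone therefore spanned all knockout values, with a 2.45-fold range from replicate 1 to replicate 2. Tumor levels were 33.0, 45.1 and 39.0 FPKM with APCmin/+ and 40.9, 35.2 and 35.9 FPKM with the deletion, and the groups overlapped. Mean ± SD was 47.9 ± 19.9 against 45.2 ± 6.63 FPKM in crypts and 39.0 ± 6.09 against 37.3 ± 3.11 FPKM in tumors (n = 3 each). The log2 fold change was -0.0014 in crypts (95% interval from -0.74 to 0.74) and -0.06 in tumors (from -0.37 to 0.26).

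*Idi1* encodes isopentenyl-diphosphate isomerase, which makes the starter unit for chain building (chr13:8885501-8892451, plus strand). Crypt levels were 12.7, 21.1 and 13.3 FPKM in wild-type and 13.4, 13.7 and 19.5 FPKM in ieCtnnb1KO mice. In each group a single library, wild-type replicate 2 and knockout replicate 3, stood above the rest of its group. Tumor levels were 12.1, 17.9 and 14.8 FPKM with APCmin/+ and 14.6, 16.8 and 12.7 FPKM with the deletion, without separation. The log2 fold change was 0.0013 in crypts (95% interval from -0.56 to 0.56) and -0.02 in tumors (from -0.42 to 0.38). Reads of *Idi1* can also match the processed pseudogenes *Gm13502*, 100% identical to the transcript over 684 bases, and *Gm35570*, with 97.7% identity over 681 bases. These were listed at means of 1.56 and 3.40 FPKM in crypts and 1.06 and 0 FPKM in tumors, so the level of *Idi1* is uncertain by what was assigned to them.

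*Fdps* encodes farnesyl diphosphate synthase, at the branch from which sterols, dolichol, ubiquinone and protein prenyl groups all derive (chr3:89093588-89101959, minus strand). Its listed level was the lowest of the 7, and it rested on few fragments. In crypts it was 0.261, 1.06 and 1.15 FPKM in wild-type mice, or 17, 68 and 76 fragments. The ieCtnnb1KO crypts had 0.701, 0.695 and 0.880 FPKM, or 48, 49 and 52 fragments, inside the wild-type range. In tumors it was 2.28, 2.75 and 2.02 FPKM with APCmin/+ (155, 191 and 127 fragments) and 1.70, 1.35 and 1.71 FPKM with APCmin/+;ieCtnnb1KO (115, 91 and 112 fragments). All 3 knockout tumors were below all 3 control tumors. The mean was 2.35 ± 0.372 FPKM against 1.58 ± 0.205 FPKM (SD, n = 3), and the log2 fold change was -0.45 (SE 0.159, 95% interval from -0.83 to -0.07). This had a limma adjusted p of 0.317 over all tested genes and an unadjusted p of 0.0276, and the exact two-sided permutation p was 0.1, the smallest that 3 against 3 allows. It does not pass the threshold. *Fdps* was 1 of the 7 genes with groups apart and the knockout lower, where 10.6% of all genes tested in tumors were so (1781 of 16743). No gene of the 7 was apart and higher, beside 11.4% of those tested.

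Much of the *Fdps* transcript could have been counted elsewhere or not at all. In the GENCODE M21 annotation, 1124 of its 4208 exon bases (26.7%) are also exons of *Gm43738*, a gene on the same strand that runs on past it, and *Gm43738* was itself listed at means of 0.0083 FPKM in crypts and 0 in tumors. A further 4 processed pseudogenes match the 1382-base transcript with at least 95% identity over at least 200 bases. The closest, *Gm3571*, is 98.9% identical over 1062 bases and had a higher listed level than *Fdps* in every library. *Gm3571* was at 3.96, 8.02 and 5.72 FPKM in wild-type and 5.16, 6.53 and 9.00 FPKM in ieCtnnb1KO crypts. In tumors it was at 10.3, 10.6 and 7.89 FPKM in controls and 13.8, 9.88 and 13.9 FPKM with the deletion, a log2 fold change of 0.36 (adjusted p = 0.385 in limma) that points the other way from *Fdps*. Whether the tumor difference of *Fdps* lies in its transcript or in the way reads were divided among these copies was not tested. *Gm3571* was chosen after its values had been seen.

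*Fdft1* encodes squalene synthase, the first enzyme committed to sterols (chr14:63145150-63179578, minus strand). Crypt levels were 12.99, 27.1 and 21.7 FPKM in wild-type and 19.8, 15.4 and 21.2 FPKM in ieCtnnb1KO mice, where the wild-type values again enclosed the knockout ones. Tumor levels were 36.6, 44.4 and 35.9 FPKM with APCmin/+ and 41.1, 28.2 and 40.6 FPKM with the deletion, with APCmin/+;ieCtnnb1KO replicate 2 the lowest of the 6. The log2 fold change was -0.08 in crypts (95% interval from -0.72 to 0.56) and -0.10 in tumors (from -0.51 to 0.30). It shares 774 exon bases, 18.3% of the whole, with *Ctsb* on the opposite strand. *Ctsb* had means of 68.85 FPKM in crypts and 111 FPKM in tumors. The use of strand in counting is not given in the sources used here, so reads from that stretch cannot be told apart.

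*Sqle* encodes squalene epoxidase, the first oxygen-using step and a control point of the pathway (chr15:59315077-59331192, plus strand). Crypt levels were 15.7, 29.9 and 22.8 FPKM in wild-type and 18.5, 17.0 and 23.5 FPKM in ieCtnnb1KO mice. Tumor levels were 18.3, 21.3 and 18.1 FPKM with APCmin/+ and 21.7, 18.4 and 19.4 FPKM with the deletion. Groups overlapped in both tissues. The log2 fold change was -0.17 in crypts (95% interval from -0.75 to 0.40), the most negative of the 7 there, and 0.05 in tumors (from -0.20 to 0.30), the only one above 0 there.

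*Lss* encodes lanosterol synthase, which closes the sterol rings (chr10:76531588-76557138, plus strand). Crypt levels were 2.83, 5.42 and 4.91 FPKM in wild-type and 3.51, 3.14 and 5.06 FPKM in ieCtnnb1KO mice, and tumor levels were 4.59, 6.03 and 4.40 FPKM with APCmin/+ and 5.15, 4.13 and 3.98 FPKM with the deletion. The groups overlapped in each tissue, and in tumors the spread within the APCmin/+ group (SD 0.894 FPKM) exceeded the difference of the means (5.01 against 4.42 FPKM). The log2 fold change was -0.13 in crypts (95% interval from -0.75 to 0.49) and -0.16 in tumors (from -0.53 to 0.22), where it was -0.03 without APCmin/+ replicate 2.

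The order of levels per length was led by *Hmgcs1* in crypts, with a mean over 6 libraries of 46.5 FPKM, followed by *Srebf2* (30.5), *Sqle* (21.3), *Fdft1* (19.7), *Idi1* (15.6), *Lss* (4.15) and *Fdps* (0.791). The ranges of neighbouring genes overlapped among the first 5 of these, while *Idi1*, *Lss* and *Fdps* were separate from each other in all 6 libraries. In tumors *Srebf2* led with 61.7 FPKM, *Hmgcs1* (38.2) and *Fdft1* (37.8) could not be ordered, with each higher in 3 of 6 libraries, and *Sqle* (19.5), *Idi1* (14.8), *Lss* (4.71) and *Fdps* (1.97) followed without overlap. The *Lss* value is averaged over 10787 bases of annotated exons, and the others over 3505 to 7184 bases, so that unused exons lower a level by an unknown amount. The places of *Idi1*, *Fdps* and *Fdft1* also carry the limits from copies and overlapping exons given above. The last place of *Fdps* is that of its listed level and may not be that of its transcript.

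**Figure D2:**
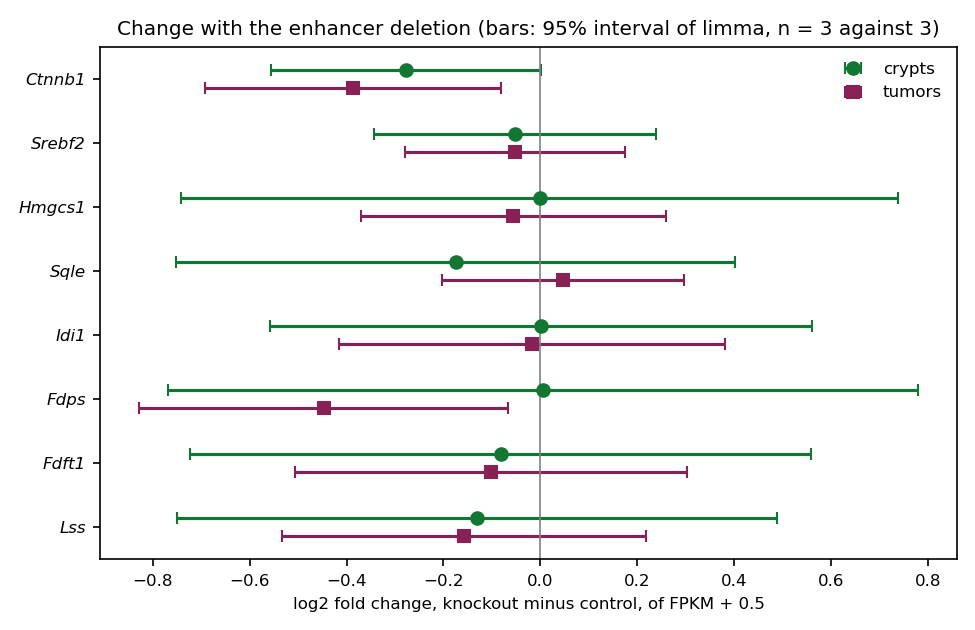
Log2 fold change of FPKM + 0.5, knockout minus control, for *Ctnnb1* and the 7 genes in crypts (circles) and tumors (squares), with the 95% interval from limma (3 libraries against 3). Intervals of the 7 genes include 0 except that of *Fdps* in tumors (from -0.83 to -0.07), and those in crypts are wider than those in tumors for every one of the 7.

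None of the 7 genes passed the limma test in either tissue. All 7 were above the filter of a mean of 0.5 FPKM in both tables, and their lowest adjusted p was 0.94 in crypts and 0.317 in tumors. No gene of 14176 tested in crypts passed (0%), with 829 (5.85%) at an unadjusted p under 0.05 and none of the 7 among them. No gene of 16743 passed in tumors either (0%), with 2421 (14.5%) at an unadjusted p under 0.05, of the 7 only *Fdps*. Voom on fragments recovered from the FPKM also called 0 genes in each tissue. No gene of the 7 had separate groups in crypts, where 5.15% of tested genes were lower and 6.79% higher in every knockout library than in every control library. The median log2 fold change of the 7 was -0.05 in crypts, with 5 below 0 and 2 above, beside 0.01 over all tested genes. In tumors it was -0.06, with 6 below 0 and 1 above, beside 0.0075 over all tested genes. In a bulk library, fewer cells that express a gene and less transcript per cell cannot be told apart.

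The change with the deletion was compared between the tissues in a single fit over the 12 libraries. No gene of 13370 passed (0%; 1133, or 8.47%, had an unadjusted p under 0.05), and none of the 7 was among these. The largest difference of the 7 was that of *Fdps*, at -0.45 for tumors minus crypts (95% interval from -1.27 to 0.37, adjusted p = 0.773), with an exact permutation p of 0.305. That place rested on wild-type crypt replicate 1: without it the difference was -0.09 for *Fdps* and 0.46 for *Sqle*, whose value with all libraries was 0.22. The smallest was that of *Srebf2*, at -4.33e-05 (from -0.32 to 0.32). For the other 5 genes it lay between -0.05 and 0.22, and every interval extended more than 0.6 on both sides of 0 except on the lower side for *Sqle* (-0.40).

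The 7 genes shared their lowest library in crypts, and 6 of 7 their highest. *Hmgcs1*, *Sqle* and *Lss* had the same order of all 6 libraries. Wild-type replicate 1 was the lowest of the 6 crypt libraries for all 7 genes, and wild-type replicate 2 the highest for 6 of 7, the exception being *Fdps*, which was highest in wild-type replicate 3. Over all tested genes, 19.2% were lowest in wild-type replicate 1, 14.4% were highest in wild-type replicate 2, and 2.44% were both. Among 12 other enzymes of the pathway, 11 were lowest in wild-type replicate 1, all but *Ebp*. Of these 12, 3 were highest in wild-type replicate 2 and 4 in knockout replicate 3. The mean centred log2 level of the 7 genes in wild-type replicates 1 to 3 was -0.46, 0.42 and 0.13, and -0.09, -0.19 and 0.19 in the knockouts. For the 12 other enzymes these means were -0.39, 0.18 and 0.15, then -0.05, -0.05 and 0.17. In tumors APCmin/+ replicate 2 was the highest library for 6 of the 7 genes, all but *Sqle*, beside 14.2% of all tested genes.

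**Figure D3:**
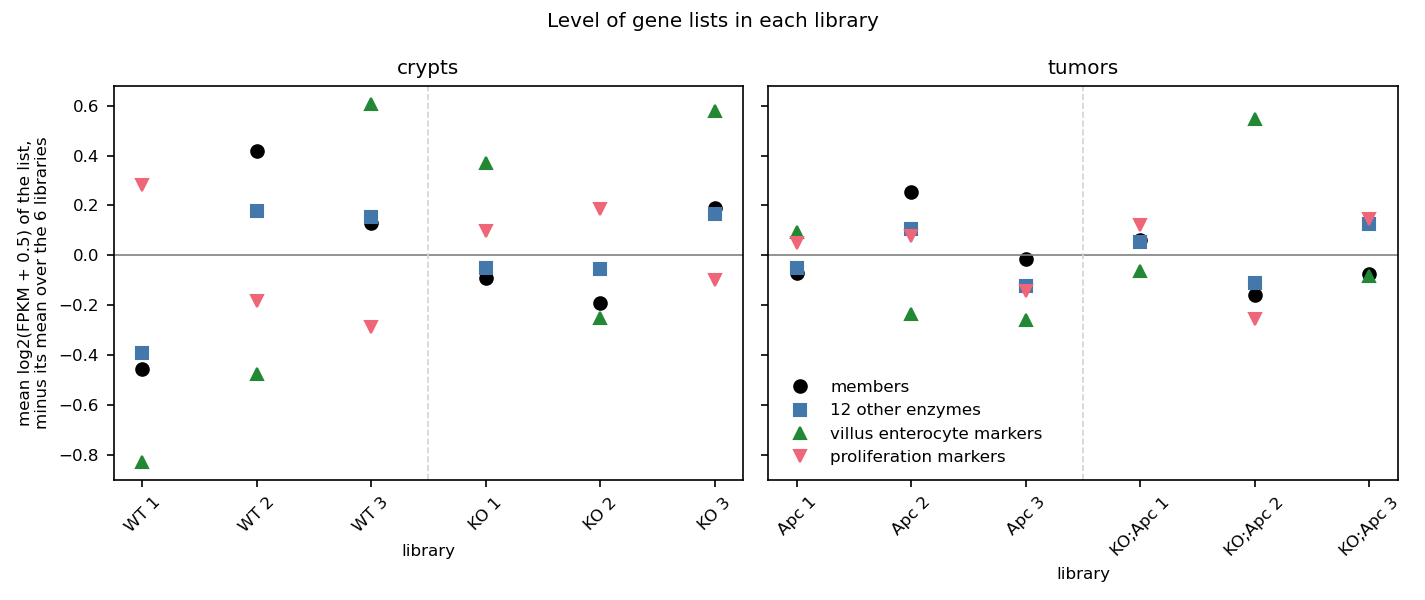
Mean log2(FPKM + 0.5) of 4 gene lists in each library, minus the list's mean over the 6 libraries of the tissue, in crypts (left) and tumors (right). The 7 genes (black circles) and the 12 other enzymes (blue squares) are both lowest in wild-type crypt replicate 1 (-0.46 and -0.39), where villus enterocyte markers (green triangles) are lowest and proliferation markers (red triangles) highest. In tumors the 7 villus markers are near the floor, with sums from 0.845 to 6.71 FPKM, and only 1 was tested.

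The spread within groups in crypts was wide for 6 of the 7 genes, all but *Srebf2*. The SD within groups of *Hmgcs1*, *Sqle*, *Idi1*, *Fdps*, *Fdft1* and *Lss* on the log2 scale lay between 0.350 and 0.480, beside a median of 0.222 over all tested genes, and at percentiles from 75.7 to 86.5. In tumors the same 6 genes lay between 0.125 and 0.246, beside a median of 0.186. Over the 6 crypt libraries Pearson's r was above 0 for all 21 pairs of the 7 genes, with a median of 0.88 and a range from 0.512 to 0.969. In tumors it was above 0 for 20 of 21 pairs, with a median of 0.665 (6 libraries). These correlations are a description without a test: the points of a pair come from the same libraries and share their depth, scaling and cell mix.

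The sign of the median change in crypts turned on single libraries of both genotypes. Without wild-type replicate 1 the median log2 fold change of the 7 was -0.35, and without wild-type replicate 2 it was 0.14. Without knockout replicate 2 it was 0.04, and without knockout replicate 3 it was -0.17. Against wild-type replicate 3 as the lone control, the library free of most stomach transcripts, it was -0.21, a choice made after seeing the data. No gene passed the limma test in any of these 5 fits. Without wild-type replicate 3, 3 genes passed, the stomach genes *Gkn1*, *Gkn2* and *Pgc*, and none of the 7. In tumors the median was -0.16 without APCmin/+ replicate 1 and -0.0037 without APCmin/+ replicate 2. The crypt libraries also differed in villus enterocyte, proliferation and stomach markers, as given above. All 7 villus enterocyte markers had log2 fold changes above 0 with the deletion (median 0.53), with groups that overlapped. Of 9 fibroblast and smooth muscle markers 2 were tested, and both were below 0 (median -0.56). Of these, 1, *Col3a1*, was apart with an unadjusted limma p under 0.05, beside 5.15% of all tested genes apart and lower and 5.85% under 0.05. *Col3a1* was near the filter, at 0.239 to 0.766 FPKM. The 9 markers summed to 1.81 to 6.31 FPKM per library, with *Dcn* the most abundant. The mean centred log2 level of the 6 goblet markers was -0.28, 0.39 and 0.28 in wild-type replicates 1 to 3, then -0.43, -0.24 and 0.29 in the knockouts. Their sums were 5583, 8518 and 9076 FPKM, then 5138, 6093 and 7731 FPKM, with *Tff3* the most abundant and none at 0. Of these 6 goblet markers, 5 had log2 fold changes below 0 and 1 above (median -0.29), with groups that overlapped. The 6 Paneth markers had centred levels of -0.23, 0.26 and 0.70, then -0.25, -0.45 and -0.02, and sums of 18408, 26384 and 50991 FPKM, then 20553, 17143 and 20262 FPKM. All 6 had log2 fold changes below 0 (median -0.52). Of the 6, 2 had groups apart, beside 5.15% of all tested genes that were apart and lower. An unadjusted limma p under 0.05 was found for 2, beside 5.85% of all tested genes. *Defa24* was highest by mean and none was at 0. The 5 colonocyte markers, with *Car4* the most abundant, had sums of 77.1, 63.1 and 54.3 FPKM, then 106, 104 and 135 FPKM. All 3 of these that were tested had groups apart, higher with the deletion, and an unadjusted limma p under 0.05 (median 0.92). Separation in that direction was found for 6.79% of all genes tested in crypts, and a p below that bound for 5.85%. The 3 tested were *Slc26a3*, *Car4* and *Slc37a2*. *Car1* was at 0 in 5 of the 6 libraries and *Aqp8* was at or below 0.35 FPKM, and neither was tested. The list is therefore not read as a sign of colonocytes in these small intestinal crypts. Mitochondrial genes took 13.5, 19.0 and 15.2% of fragments in wild-type and 11.5, 10.7 and 14.9% in ieCtnnb1KO crypts. The part of all these in the crypt levels of the 7 genes was not tested. The villus marker with the highest mean over the crypt libraries, *Fabp2*, was at 1333, 2327 and 3503 FPKM in wild-type and 3280, 2485 and 3974 FPKM in ieCtnnb1KO mice, and no listed villus marker was at 0. *Pcna*, the most abundant proliferation marker, was at 52.8, 43.4 and 51.3 FPKM in wild-type and 52.4, 59.8 and 50.01 FPKM in ieCtnnb1KO mice.

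Among 11557 other genes with a mean of at least 1 FPKM in both tables, likeness to the scaled mean of the 7 genes was ranked by Pearson's r over the 12 libraries, each centred on its table. *Cyp51*, the lanosterol demethylase, ranked 2nd with r = 0.902 (0.983 over the 6 crypt libraries and 0.579 over the 6 tumor libraries). Ranks 3 to 6 went to the long transcript *5033406O09Rik* (0.902), the epithelial zinc finger gene *Ovol1* (0.891), the transcript *5330438D12Rik* (0.886) and the Notch glycosyltransferase gene *Lfng* (0.881). *Tm7sf2* (0.571 over the tumor libraries) and *Insig1* (0.991 there) followed at ranks 10 and 13, and were picked for their ranks. The pathway lists described below did not follow the 7 genes as a whole. Their ranks ran from 2 for *Cyp51* to 11419 for *Pdss2*. Among them *Tmem97* ranked 6808 (r = -0.136) and the enzyme gene *Ebp* 8615 (r = -0.298).

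Sterol regulatory elements, CCAAT boxes and GC boxes are known binding sites of SREBP2 and of the factors NF-Y and SP1 that act with it. Promoter windows of 300 bases (250 before and 50 after the start, from RefSeq on GRCm38.p6) were at hand for 4 of the 7 genes, *Srebf2*, *Hmgcs1*, *Idi1* and *Lss*. To keep the sequences few they are shown for the regulator and the 2 earliest enzymes of the 7, and not for *Lss*, which had the same lowest and highest crypt libraries. Capitals mark the sterol regulatory element TCACNCCAC, the CCAAT box and the GC box, GGGCGG, or their reverse complements. The windows are *Srebf2* chr15:82147019-82147318, *Hmgcs1* chr13:119690101-119690400 and *Idi1* chr13:8885356-8885655, all on the plus strand.
Srebf2: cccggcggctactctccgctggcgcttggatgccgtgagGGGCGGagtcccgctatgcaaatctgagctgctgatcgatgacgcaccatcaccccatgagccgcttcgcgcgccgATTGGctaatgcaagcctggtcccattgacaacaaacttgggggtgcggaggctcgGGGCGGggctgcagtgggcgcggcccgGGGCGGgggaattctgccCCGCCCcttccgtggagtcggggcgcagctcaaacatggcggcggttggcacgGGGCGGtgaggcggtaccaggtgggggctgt
Hmgcs1: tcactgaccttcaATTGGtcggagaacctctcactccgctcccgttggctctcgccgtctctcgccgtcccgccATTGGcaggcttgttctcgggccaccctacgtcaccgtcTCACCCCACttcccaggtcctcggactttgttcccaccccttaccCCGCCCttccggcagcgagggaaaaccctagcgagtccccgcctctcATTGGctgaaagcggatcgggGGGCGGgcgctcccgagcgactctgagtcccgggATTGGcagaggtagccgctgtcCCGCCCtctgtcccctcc
Idi1: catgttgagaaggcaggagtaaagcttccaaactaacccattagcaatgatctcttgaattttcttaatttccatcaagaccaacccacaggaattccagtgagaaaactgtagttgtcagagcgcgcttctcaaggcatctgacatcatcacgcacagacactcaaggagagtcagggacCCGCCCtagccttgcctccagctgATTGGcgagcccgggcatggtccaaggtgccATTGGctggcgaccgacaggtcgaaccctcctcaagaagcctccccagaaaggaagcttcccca

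Only the *Hmgcs1* window held TCACNCCAC, once, on the forward strand, 137 bases before the start. That motif was in 408 of 32851 promoter windows (1.24%), and the looser CACNCCAC, which lies within it, in 6.24%. *Srebf2*, *Idi1* and *Lss* had neither in these bases, which says nothing of other stretches or of binding. All 4 windows had a CCAAT box on the reverse strand, 4 in *Hmgcs1*, 2 in *Idi1* and 1 each in *Srebf2* and *Lss*, beside 37.4% of all windows with at least 1. All 4 had a GC box, 5 in *Srebf2*, 3 in *Hmgcs1*, 2 in *Lss* and 1 in *Idi1*, beside 35.7% of all windows.

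The rest of the pathway was followed with lists of other genes. Of the 12 other enzymes, 6 were below 0 in crypts and none had an unadjusted p under 0.05, with a median log2 fold change of 0.02. In tumors the median was 0.08, and 2 of the 12, *Dhcr7* and *Hsd17b7*, both late steps, had an unadjusted p under 0.05, beside 14.5% of all genes tested there. *Dhcr7*, which makes cholesterol from its direct precursor, was at 20.3, 22.3 and 20.8 FPKM in APCmin/+ and 17.7, 15.2 and 15.2 FPKM in APCmin/+;ieCtnnb1KO tumors. Its groups did not overlap (10.6% of tested genes were apart and lower), and its log2 fold change was -0.39 (SE 0.0942, limma adjusted p = 0.269). *Hsd17b7* had 6.85, 7.50 and 7.02 FPKM against 5.48, 6.36 and 4.96 FPKM, also without overlap (log2 fold change -0.33, adjusted p = 0.313). The abundant enzyme genes *Cyp51* (mean 25.6 FPKM in crypts and 38.1 FPKM in tumors) and *Mvd* (15.1 and 41.8 FPKM) overlapped between genotypes in both tissues.

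The proteins that move and cut SREBP2 were followed as well. Of the 5 genes for escort, retention and cleavage, none had an unadjusted p under 0.05 in crypts, and in tumors *Mbtps1*, the gene for the first protease that cleaves SREBP2, was the 1 of 5 that did, beside 14.5% of all tested genes. *Mbtps1* was at 24.6, 26.0 and 26.5 FPKM in APCmin/+ and 22.0, 20.6 and 17.7 FPKM in APCmin/+;ieCtnnb1KO tumors, with groups apart and a log2 fold change of -0.35 (adjusted p = 0.284). With *Mbtps2* (-0.22, limma adjusted p = 0.447), 2 of the 5 were apart and lower in tumors, beside 10.6% of all tested genes. *Insig1*, a sterol-responsive retention gene and the most abundant of the list, was like most of the 7 lowest in wild-type replicate 1 and highest in wild-type replicate 2 among crypts, at 13.7, 29.7 and 27.7 FPKM in wild-type and 28.7, 18.9 and 27.7 FPKM in ieCtnnb1KO mice. Of 5 other sterol-responsive genes none had an unadjusted p under 0.05 in either tissue. The highest by mean over the 12 libraries were *Tmem97* (means of 46.5 FPKM in crypts and 37.5 FPKM in tumors) and *Stard4* (40.7 and 23.3 FPKM).

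Of the 8 genes on the non-sterol branches from farnesyl diphosphate, all 8 had a log2 fold change above 0 in crypts (median 0.15) with none at an unadjusted p under 0.05, while 7478 of 14176 tested genes were above 0. In 7 of the 8, wild-type replicate 3 was the lowest crypt library, as it was for 28.1% of all tested genes. In tumors 5 of 8 were above 0, and 1 of 8 had an unadjusted p under 0.05, beside 14.5% of all tested genes. This was *Nus1*, a subunit of the dolichol-making enzyme, at 23.8, 21.1 and 21.9 FPKM in APCmin/+ and 27.3, 30.0 and 27.2 FPKM in APCmin/+;ieCtnnb1KO mice (log2 fold change 0.33, adjusted p = 0.269). *Fnta*, the other abundant gene of this list, had means of 19.0 FPKM in crypts and 20.8 FPKM in tumors.

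Fatty acid synthesis, which the related factor SREBP1 controls, gave a median of 0.13 over 9 genes in crypts and -0.06 in tumors. Only *Me1*, the malic enzyme that supplies NADPH, had an unadjusted p under 0.05, in crypts (1 of 9, beside 5.85% of all tested genes), at 1.39, 2.14 and 1.51 FPKM in wild-type and 3.08, 2.62 and 9.34 FPKM in ieCtnnb1KO mice (log2 fold change 1.15, adjusted p = 0.821). Without knockout replicate 3 the *Me1* fold change was 0.63. *Scd2*, a desaturase gene and the highest of the list by mean in each tissue, varied 5.35-fold across the crypt libraries with the lowest value in wild-type replicate 1 (10.4 FPKM) and the highest in knockout replicate 3 (55.9 FPKM). *Acly*, the source of cytosolic acetyl-CoA, had means of 25.4 FPKM in crypts and 65.4 FPKM in tumors.

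Genes of the sterol sensor LXR and of its targets, sterol exporters among them, were read last, and none passed the test. Of 7 genes, 5 had an unadjusted p under 0.05 in tumors, beside 14.5% of all genes tested there: *Abcg5*, *Abcg8*, *Abca1* and *Mylip* with negative and *Nr1h3* with positive log2 fold changes. *Abcg5*, a sterol exporter gene, was at 3.53, 5.70 and 5.89 FPKM in APCmin/+ and 2.86, 1.49 and 2.22 FPKM in APCmin/+;ieCtnnb1KO tumors (log2 fold change -1.04, adjusted p = 0.269). The values for *Abcg8*, *Abca1*, *Mylip* and *Nr1h3* (LXRα) were -0.68, -0.65, -0.28 and 0.52, and the groups of *Abcg8* overlapped. Without knockout replicate 2 *Abcg8* was at -0.45, without knockout replicate 3 *Abca1* at -0.39, and without APCmin/+ replicate 3 *Mylip* at -0.18. The highest tumor value over all alternatives tried was -0.29 for *Abca1* and -0.14 for *Mylip*. APCmin/+ replicate 3, which had *Xist*, was the highest library for 5 of the 7 genes, beside 21.9% of all tested genes. In crypts *Mylip* (-0.76, and -0.47 without wild-type replicate 3) and *Nr1h3* (0.42) had an unadjusted p under 0.05 (2 of 7, beside 5.85%), while *Abcg5* (0.12) and *Nr1h2* (LXRβ, 0.13) did not. Markers of cell types were read beside the tumor values. Over all genes tested in tumors, 11.4% were apart and higher with the deletion, and 10.6% apart and lower. All 7 epithelial markers had groups apart and higher with the deletion (median 0.28), with sums of 4332, 4398 and 3836 FPKM against 5107, 4946 and 5288 FPKM, *Krt8* the most abundant. All 6 goblet markers had groups apart and higher with the deletion, with sums of 1298, 1321 and 1344 FPKM against 2484, 2949 and 2666 FPKM, *Spink4* the most abundant. The sums of the 9 fibroblast and smooth muscle markers were 461, 329 and 302 FPKM against 479, 573 and 489 FPKM, with *Col1a1* highest by mean over the 6 libraries. Of these 9, 4 were apart and higher, beside 11.4% of all tested genes, and *Des* was at -0.18 with overlap. All 6 Paneth markers had log2 fold changes above 0 (median 0.49) with groups that overlapped, and sums of 1897, 1945 and 2122 FPKM against 2836, 4353 and 1633 FPKM, *Lyz1* the most abundant. The 5 colonocyte markers were also above 0 (median 0.29), 1 of them apart, with sums of 79.3, 70.9 and 84.1 FPKM against 101, 225 and 138 FPKM, *Car1* the most abundant. *S100a8*, the most abundant of 8 immune markers, was apart and lower (-0.98, unadjusted p = 0.0383 in limma), while 4 of the 6 tested were above 0 and the sums were 101, 176 and 127 FPKM against 101, 74.0 and 85.7 FPKM. Of 5 endothelial markers 2 were apart and higher, among them *Pecam1* (0.47, unadjusted p = 0.00558 in limma). Their sums were 32.2, 30.3 and 27.1 FPKM against 35.2, 33.5 and 33.5 FPKM, *Cdh5* the most abundant. *Fabp4* was the only adipocyte marker tested and was apart and higher (0.70, unadjusted p = 0.00492 in limma). The sums of the 5 adipocyte markers were 1.17, 1.58 and 1.77 FPKM against 2.74, 2.44 and 3.20 FPKM, with *Fabp4* the most abundant and 3 or 4 of the 5 at 0 in each library. No marker of the other 7 of these lists was at 0, and the part of all 8 in the tumor values of *Fdps* and of the pathway lists was not tested.

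**Figure D4:**
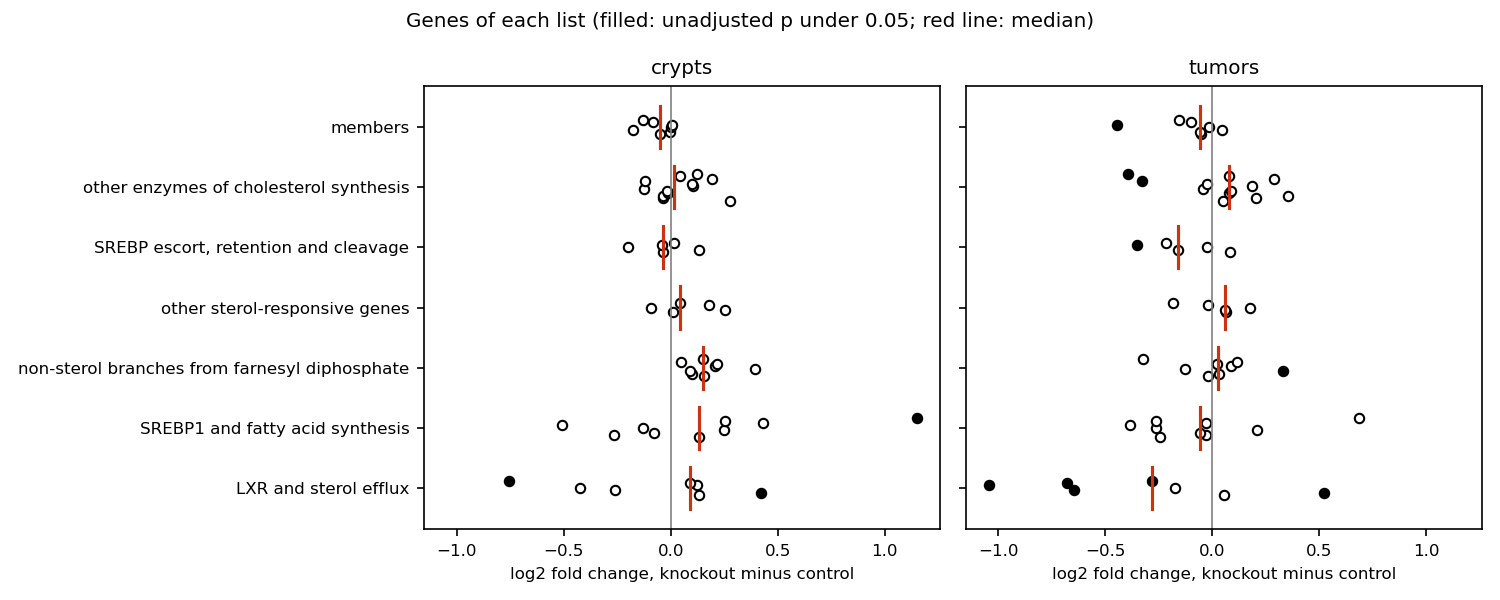
Log2 fold change, knockout minus control, of each gene of the 7 and of 6 other lists in crypts (left) and tumors (right). Each point is a gene, filled where the unadjusted limma p was under 0.05, and red lines are medians. The members' medians are -0.05 and -0.06. Filled points are most frequent in the LXR and sterol efflux list in tumors (5 of 7), beside 14.5% of all genes tested there. Of these 5, *Nr1h3* is above 0 and the rest below. No gene passed after adjustment in either tissue.

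With 3 libraries in each group, the intervals above leave room for differences of either sign in most of the 7 genes, and values that miss the threshold do not show equal levels. The crypt comparison rests on wild-type libraries that differ from each other in stomach and villus transcripts. Transcript levels say nothing of enzyme activity or of sterol content, which were not measured here.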

How the data were processed

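Libraries were made from total RNA with a NEBNext Ultra II kit, per the labels. The authors sequenced paired-end reads on a NovaSeq, aligned them with HISAT2, counted them with featureCounts, and deposited FPKM in a table for each tissue, with replicates kept apart. The authors' processing notes also name cutadapt, Cufflinks 2.2.1, DESeq2 and the build mm10. Annotation and use of strand are not given in the sources used here. FPKM times gene length was a whole multiple of the smallest step (tolerance 0.01 of a step) for 100% of values above 0, which gave 14457896 to 16156712 fragments per library.

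Limma 3.58.1 in R 4.3.3 was fitted to log2(FPKM + 0.5) with a variance trend, over genes with a mean of at least 0.5 FPKM, with Benjamini-Hochberg adjustment over all of them at 0.05. Only the 6 libraries of a tissue entered its fit. The added 0.5 shrinks fold changes of low genes, *Fdps* above all. The tissues were compared by the interaction in a fit of 12 libraries. Copies were sought with BLAST 2.17.0 in GENCODE M21 transcripts, and Python drew the figures. The limma step was run on simulated data first. Replicates were taken as separate mice, and every pair in a group differed by more than counting noise (chi-square per degree of freedom from 17.9 to 87.8).

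The members and lists were chosen with earlier results of these data known. Genes named are the 7, *Ctnnb1*, and from each pathway list those with an unadjusted p under 0.05 in either tissue and the 2 with the highest mean level among those reported, beside 5 genes of like pattern. Of the marker lists only the most abundant gene and a few others are named. Others, such as *Gm3571*, *Tm7sf2*, *Ebp* and *Mbtps2*, were named after their values were seen. Not every gene of the pathway is reported here, nor the gene of rank 1 by likeness. Alternatives tried were other pseudocounts, filters, scalings and variance models, a replicate block, each library left out, and voom. The lone control and the tumors with Y-linked transcripts were added after the data were seen.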

Additional observations from a re-analysis of the deposited data

How the results depend on the processing

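In crypts 0 genes passed in every alternative except without wild-type replicate 3, when 3 did (*Pgc*, *Gkn2* and *Gkn1*). Leaving out 1 library at a time moved the median log2 fold change of the members in crypts from -0.353 (without wild-type replicate 1) to 0.1437 (without wild-type replicate 2). With replicate 3 as the lone control it was -0.2143; that library is then assumed to vary like the rest. The range with 1 library left out was -0.1353 to 0.02927 for *Srebf2*, -0.3505 to 0.2883 for *Hmgcs1*, -0.4131 to 0.04023 for *Sqle* and -0.1692 to 0.2292 for *Idi1*. It was -0.353 to 0.2062 for *Fdps*, -0.3733 to 0.1437 for *Fdft1*, -0.3859 to 0.02858 for *Lss* and -0.3449 to 0.003739 for *Hsd17b7*. For *Nus1* it was -0.06257 to 0.179, for *Abcg5* -0.08787 to 0.3121 and for *Abcg8* -0.1638 to 0.3479.

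Other reversals in crypts were *Fdps* at -0.01424 with pseudocount 1, -0.02773 at the same total without the 50 highest genes and -0.3959 with the lone control. *Hmgcs1* was 0.02393 at the same total and 0.001235 with voom. *Idi1* was -0.05579 with quantile normalization, -0.05724 without the 50 highest genes and -0.001893 with voom. With the lone control *Mbtps1* was 0.06281, *Abcg5* -0.2545 and *Abcg8* -0.4215. *Fdps* has no crypt value under the filter of a mean of 1 FPKM.

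In tumors 0 genes passed, and 1 (*Mir3473e*) with no variance trend. The median of the 7 was -0.1846 with quantile normalization, and -0.156 to -0.003716 with 1 library left out. *Fdps* was below 0 in all alternatives, with a lowest adjusted p in limma of 0.279. Left-out ranges were -0.1023 to 0.008505 for *Srebf2*, -0.1708 to 0.05305 for *Hmgcs1*, -0.01984 to 0.1203 for *Sqle*, -0.156 to 0.1179 for *Idi1*, -0.1924 to 0.07417 for *Fdft1* and -0.2612 to -0.02846 for *Lss*. *Sqle* was -0.02837 with quantile normalization, and *Idi1* 0.08442 in the tumors with Y-linked transcripts alone.

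For the difference between tissues 0 genes passed, 1 with pseudocount 0.1 (*Trbj1-6*) and 1 with the replicate block (*Trbj1-3*). *Srebf2* was 0.0002109 with pseudocount 0.1 and 0.01644 without the 50 highest genes. Left-out ranges were -0.08107 to 0.08354 for *Srebf2*, -0.3445 to 0.2943 for *Hmgcs1*, -0.2467 to 0.1517 for *Idi1*, -0.2446 to 0.2724 for *Fdft1* and -0.1864 to 0.2281 for *Lss*. They were -0.6533 to -0.09411 for *Fdps* and 0.005994 to 0.4594 for *Sqle*, with the values nearest to 0 for *Fdps* and farthest for *Sqle* both without wild-type crypt replicate 1.

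With the replicate block the medians were -0.05176 in crypts and -0.05626 in tumors, with 0 genes passing in each. Deviations of libraries with the same number had r from -0.122 to 0.0541, so that the numbers do not pair the samples.

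The cause of these shifts was not tested. With 3 libraries in each group, leaving out 1 changes the sign for most of the 7 genes, and in crypts libraries of both genotypes do so. Without knockout replicate 2 the median log2 fold change of the members in crypts was 0.04118, *Hmgcs1* 0.08797 and *Fdft1* 0.05214, and without knockout replicate 1 *Hmgcs1* was 0.02159.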
